A study of Mus musculus with 6 samples.

Results

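Adipokines are the hormones and other proteins that fat cells release into the blood or to their neighbors. The 10 genes described here were chosen by name: adiponectin (Adipoq), leptin (Lep), resistin (Retn), retinol binding protein 4 (Rbp4), Nampt, Fgf21, Gdf15, meteorin-like (Metrnl), Slit2 and the prostaglandin D synthase Ptgds. All 10 were among the 16538 genes of the deposited table. Gene expression was read by RNA-Seq in the inguinal fat pad of the mouse (iWAT), subcutaneous white fat that surrounds a mammary gland and a lymph node, in 3 control and 3 NRG4-AKO samples. Control mice were labelled wt and described in the study as fl/fl littermates, so that by this description both groups had a floxed Nrg4 gene. AKO mice also had an Adiponectin-Cre transgene, in which sequences of Adipoq direct the recombinase to adipocytes. The Cre transgene and the loss of Nrg4 occur together in AKO mice and cannot be told apart in these samples. Both groups were housed in the cold (8°C) before sampling. The labels give 10 days, and the text of the study gives a slightly longer time. Each sample was a pool of RNA of 2 mice. The ages of the mice were not given in the sources used here.

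Nrg4 (neuregulin 4) is itself a secreted factor of thermogenic fat and signals through the receptor ERBB4. Adiponectin raises insulin sensitivity, leptin reports the size of the fat stores to the brain, and mouse resistin is made by adipocytes and opposes insulin. FGF21, GDF15, meteorin-like and SLIT2 are released under cold, stress or exercise and have been linked to energy expenditure or to the beiging of white fat. The comparison addressed whether the loss of one secreted adipocyte factor came with changes in the mRNA of the others.

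Values are read counts divided by a size factor for each sample (normalized counts), and differences were tested with limma on log2(normalized count + 1) over 13855 genes, those averaging 10 or more. The added 1 can understate the fold change of a gene with few reads. Depth was similar, from 17570335 to 18373707 reads on the listed genes. Nrg4 had 3092 to 3128 normalized counts in control and 2577 to 2691 in AKO samples, with no overlap. Its adjusted p was 0.298 from limma and 0.0682 from DESeq2. The study itself measured Nrg4 by qPCR and reported almost none in AKO iWAT. Reads over the whole gene do not separate the deleted exons from the others. Ucp1, the uncoupling protein of thermogenic fat, had 16827 to 25393 normalized counts in control and 4836 to 7802 in AKO samples (log2 fold change -1.75, adjusted p = 0.0703 from limma and 1.97e-06 from DESeq2). The 7 adipocyte markers, Plin1 and Fabp4 among them, were present in all samples and summed to 637033 to 649503 normalized counts in control and 543603 to 600611 in AKO. Skeletal muscle markers ranged from 167 to 26327 in control and from 19297 to 113206 in AKO samples, and mammary epithelial markers from 31.2 to 1642 and from 209 to 2361, with 4 of the 8 mammary markers at 0 in at least 1 sample. In whole tissue, fewer cells of a type and less RNA per cell cannot be told apart.

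None of the 10 genes passed the test between control and AKO iWAT, and the intervals below give the sizes of difference that these samples leave possible. Of the 9 that were tested, 0 passed with limma (smallest adjusted p = 0.562), where 0.0144% of all genes tested passed. None of the 9 had an unadjusted p under 0.05, against 9.10% of all genes. On recovered whole reads, DESeq2 called 0 of the 10 (0.998% of all genes it tested) and the quasi-likelihood test of edgeR called 0 of 9 (0.0216% of all). Fitted values were higher in AKO for 6 genes and lower for 3. The median absolute log2 fold change was 0.10 over the 9 genes and 0.10 over all genes tested. The groups did not overlap for 1 of the 9, Slit2, where 6.14% of all genes had non-overlapping groups with AKO higher.

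Promoter sequences of Adipoq and Lep from RefSeq (GRCm38.p6, both on the plus strand) are shown because the first belongs to the gene whose sequences direct the Cre and the second to the abundant adipocyte hormone that varied most between samples. Each runs from 250 bases before to 50 bases after the annotated start, at chr16:23146286-23146585 for Adipoq and chr6:29059971-29060270 for Lep. Capitals mark matches to CCAAT on either strand, TATAA on the strand of the gene and TTGCNNAA, the core of a C/EBP site, on either strand.
Adipoq: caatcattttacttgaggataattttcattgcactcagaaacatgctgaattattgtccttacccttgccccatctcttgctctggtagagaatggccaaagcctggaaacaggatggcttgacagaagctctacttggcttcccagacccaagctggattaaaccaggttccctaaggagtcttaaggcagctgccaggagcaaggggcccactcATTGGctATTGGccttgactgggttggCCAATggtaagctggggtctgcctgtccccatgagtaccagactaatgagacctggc
Lep: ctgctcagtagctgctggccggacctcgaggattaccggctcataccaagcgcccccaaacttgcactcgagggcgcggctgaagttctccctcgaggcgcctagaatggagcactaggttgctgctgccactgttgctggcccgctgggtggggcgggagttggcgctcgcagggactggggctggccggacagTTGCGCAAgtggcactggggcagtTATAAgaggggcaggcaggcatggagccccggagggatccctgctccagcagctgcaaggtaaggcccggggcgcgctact
The Adipoq window held 3 matches to CCAAT, 34 and 27 bases before the start on the opposite strand (letters ATTGG) and 7 bases before it on the same strand, and no match to the other motifs. The Lep window held TTGCGCAA, which reads the same on both strands, 55 bases before the start and TATAA 31 bases before it. CCAAT was found in 37.4% of the 32851 promoter windows, TATAA in 17.5% and TTGCNNAA in 10.8%. The Adipoq window had 0 CpG and the Lep window 19, where the median window had 7. How much of the Adipoq locus the Cre transgene carries is not stated in the sources used here, and the counts sum all reads on the gene.

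Adiponectin was the most abundant of the 10 mRNAs. To compare genes, normalized counts were divided by the length of the principal annotated transcript. On this scale Adipoq had 21807 to 28216 normalized counts per kb over the 6 samples and was number 15 of the 15894 genes with an annotated length. Retn followed with 11726 to 15005 per kb, Rbp4 with 3540 to 5062, Lep with 1173 to 2670, Nampt with 734 to 865 and Metrnl with 156 to 273. These 6 genes kept this order in every sample, and the ranges of neighbors did not overlap. Ptgds (10.7 to 38.5 per kb), Fgf21 (3.39 to 23.2), Slit2 (3.46 to 4.94) and Gdf15 (1.243 to 6.495) were far lower, and their neighboring ranges overlapped. With the bases of all annotated exons as the length, Ptgds and Fgf21 changed places, as did Slit2 and Gdf15.

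**Figure D1:**
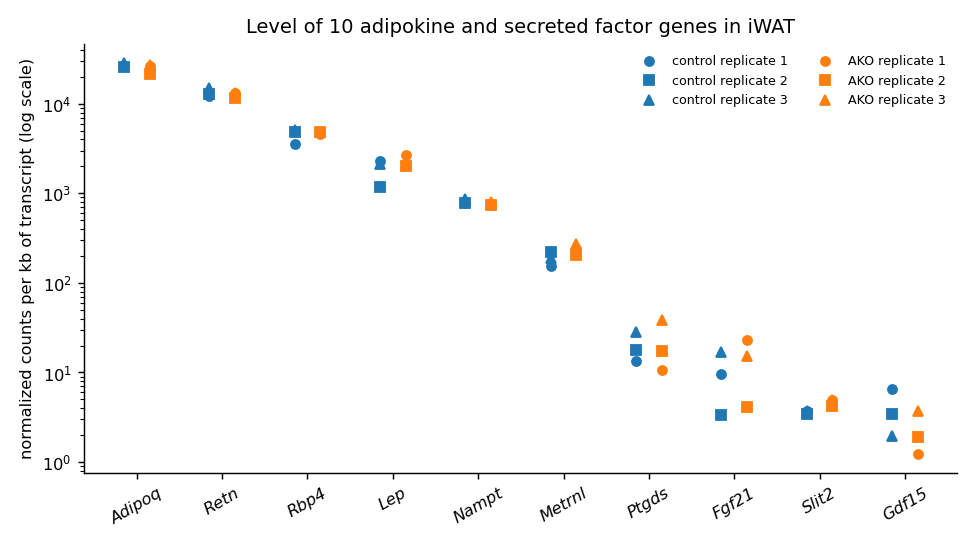
Normalized counts per kb of the principal transcript (log axis) for the 10 genes, ordered by mean level. Each point is 1 sample, blue for control and orange for AKO. The 6 genes from Adipoq to Metrnl form separate steps, and the 4 lowest genes overlap.

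Adipoq (chromosome 16, 23146536 to 23158028, GRCm38 here and for each gene) had 33740 normalized counts in control replicate 1, 33299 in replicate 2 and 36454 in replicate 3, and 34235, 28174 and 34761 in the AKO samples. AKO replicate 2 was the lowest of the 6, and the other AKO samples lay within the control range. Control samples averaged 34498 ± 1709 normalized counts and AKO samples 32390 ± 3661 (SD, n = 3 each). The log2 fold change was -0.10 (standard error 0.10, 95% interval -0.33 to 0.14, adjusted p = 0.837 from limma), an interval from 0.793-fold to 1.10-fold. Without AKO replicate 2 the log2 fold change was 0.0011. The tested genes with the most similar pattern over the 6 samples were Slc7a8, Zfp938 and Fam213b, whose centered log2 values differed from those of Adipoq by a root mean square of 0.024, 0.028 and 0.029, where Adipoq itself varied by 0.116. They were picked as the closest of all genes tested, so that small differences follow from the choice, and shared regulation was not tested.

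Retn (chromosome 8, 3655770 to 3660110) had 13786, 14640 and 17090 normalized counts in control and 15208, 13356 and 15030 in AKO samples. Every AKO sample except replicate 2 lay within the control range. The log2 fold change was -0.06 (standard error 0.10, 95% interval -0.29 to 0.17, adjusted p = 0.910 from limma). Retnla, a resistin-like paralog made mainly by macrophages, was tested as a separate gene and had 2980 to 4095 normalized counts in control and 3214 to 5197 in AKO samples (adjusted p = 0.694 from limma).

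Leptin varied most among the abundant adipokines. Lep (chromosome 6, 29060220 to 29073877) had 7409, 3822 and 6888 normalized counts in control and 8702, 6601 and 7196 in AKO samples. Control replicate 2 was the lowest by a wide margin, and AKO replicate 2 lay below the other controls. Averages were 6040 ± 1938 normalized counts in control and 7500 ± 1083 in AKO (SD, n = 3 each). The log2 fold change was 0.36 (standard error 0.24, 95% interval -0.19 to 0.91, adjusted p = 0.706 from limma). The interval covers 0.879-fold to 1.88-fold, so that a near doubling of Lep in AKO was not distinguishable from no change. Without control replicate 2 the log2 fold change was 0.06. Control replicate 2 also had the largest sum of the 6 thermogenic markers (39379 normalized counts, against 27331 to 27736 in the other controls and 11047 to 14552 in AKO) and the smallest sum of mammary markers, and the part of these differences in the Lep values was not tested. Lepr, the leptin receptor, was at 23.7 to 59.2 normalized counts in control and 43.4 to 87.9 in AKO.

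Rbp4 (chromosome 19, 38116629 to 38125281), the carrier of retinol in blood, had 3317, 4564 and 4743 normalized counts in control and 4306, 4494 and 4586 in AKO samples. The AKO samples lay inside the control range, with control replicate 1 alone far below the rest. Control replicate 1 also had the largest lymphocyte and the smallest skeletal muscle sum of the controls. The part of these differences in the Rbp4 values was not tested. The log2 fold change was 0.10 (standard error 0.13, 95% interval -0.20 to 0.40, adjusted p = 0.874 from limma), and it was -0.06 without control replicate 1. Nampt (chromosome 12, 32819545 to 32853349) encodes the enzyme that recycles nicotinamide into NAD and is also released from cells. It had 3526, 3528 and 3916 normalized counts in control and 3323, 3333 and 3644 in AKO samples. Nampt had the narrowest interval of the 9 genes, from 0.839-fold to 1.05-fold (log2 fold change -0.09, standard error 0.07, adjusted p = 0.761 from limma).

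**Figure D2:**
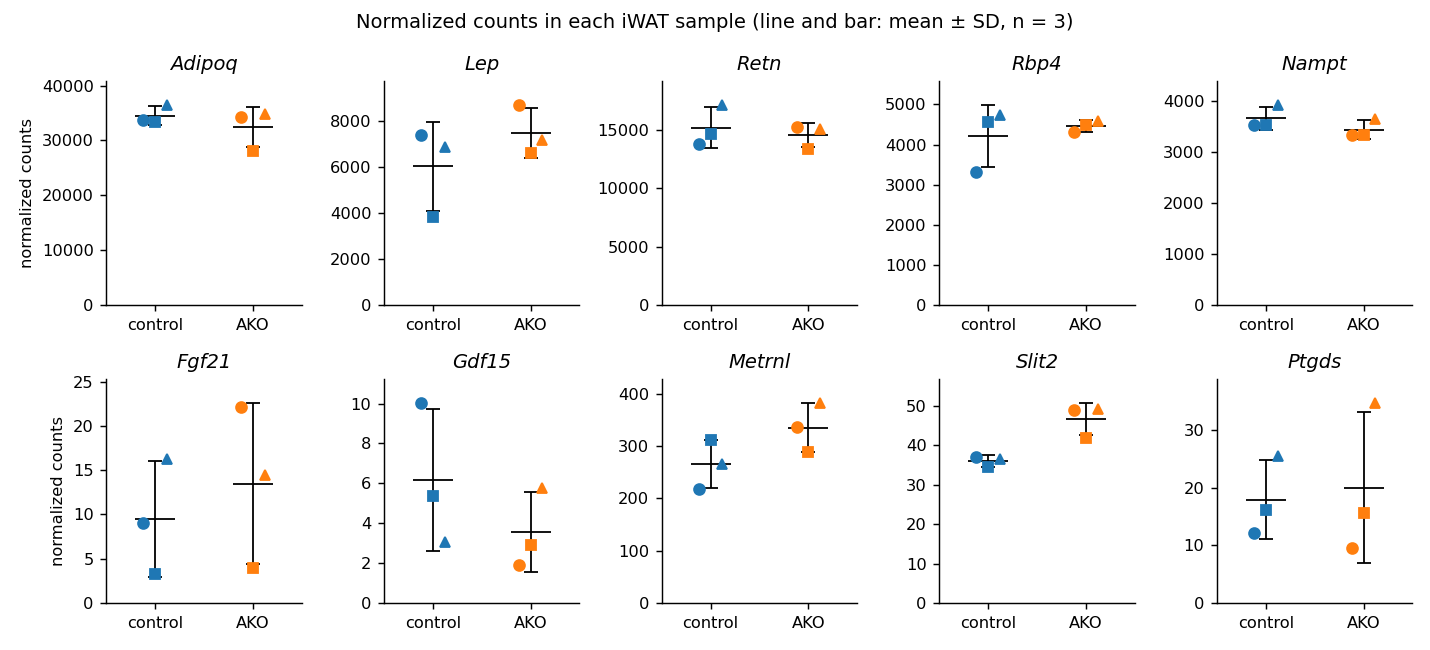
Normalized counts of each gene in each sample (axes start at 0). Circles, squares and triangles are replicates 1, 2 and 3, and the line and bar give the mean and SD of 3 samples. The groups overlap for every gene except Slit2, whose AKO values (42.0 to 49.2) lie above the control values (34.4 to 37.1).

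Among the factors induced by cold or stress, Metrnl had the smallest p. Metrnl (chromosome 11, 121701544 to 121716306) encodes meteorin-like, a hormone of muscle and fat. It had 219, 312 and 266 normalized counts in control and 336, 288 and 383 in AKO samples. AKO replicate 2 lay within the control range and the other AKO samples above it. The log2 fold change was 0.34 (standard error 0.15, 95% interval -0.01 to 0.70, adjusted p = 0.562 from limma), with an unadjusted p of 0.0573. With single samples dropped it lay between 0.21, without control replicate 1, and 0.46. Macrophage markers also had higher sums in AKO (9746 to 12978 normalized counts) than in control (7876 to 10923), with overlap, and the skeletal muscle markers are given above. Their part in the Metrnl values was not tested. The genes of most similar pattern, picked in the same way as for Adipoq, were Isg15, Fut10 and Dnm1, at a root mean square difference of 0.033, 0.042 and 0.060 on the log2 scale. Metrnl itself varied by 0.255, and shared regulation was not tested.

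Slit2 (chromosome 5, 47983138 to 48307733) encodes a secreted guidance protein whose cleaved fragment acts on fat cells. It had 37.1, 34.4 and 36.6 normalized counts in control and 49.0, 42.0 and 49.2 in AKO samples. The groups did not overlap, with AKO higher (p = 0.1 in a 2-sided exact permutation test, which cannot give less with 3 samples a group). The log2 fold change was 0.36 (standard error 0.18, 95% interval -0.05 to 0.77, adjusted p = 0.590 from limma), and it lay between 0.32 and 0.44 when any single sample was dropped. The SD was 1.44 in control and 4.10 in AKO, less than the Poisson counting error of 6.09 and 6.72 at these levels, so that the SDs understate the error. The 6 samples held 32 to 51 reads each. Slit3, a paralog with many more reads, had 1755, 1628 and 1946 normalized counts in control and 2021, 1920 and 2056 in AKO samples (log2 fold change 0.17, standard error 0.08, adjusted p = 0.557 from limma). AKO replicate 2 of Slit3 lay below the highest control.

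Fgf21 (chromosome 7, 45613886 to 45615490), a hormone made mainly by liver and in thermogenic fat under cold, was close to the limit of detection. It had 9.03, 3.23 and 16.3 normalized counts in control and 22.1, 3.91 and 14.5 in AKO samples. The values ranged over 5.04-fold among controls and 5.66-fold among AKO samples, and the groups overlapped throughout. With 70 reads in all 6 samples, the 95% interval ran from 0.419-fold to 4.27-fold (log2 fold change 0.42, standard error 0.72, adjusted p = 0.913 from limma). Its direction reversed without control replicate 2 and without AKO replicate 1.

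Gdf15 (chromosome 8, 70629393 to 70632456), a stress hormone that acts on the hindbrain, had 10.0, 5.38 and 3.05 normalized counts in control and 1.92, 2.93 and 5.78 in AKO samples. Its mean of 4.85 was below the filter, with 29 reads in all 6 samples. Without the filter, the log2 fold change was -0.62 (95% interval -1.84 to 0.59, adjusted p = 0.810 from limma). Ptgds (chromosome 2, 25466709 to 25470046), which makes prostaglandin D2 and carries lipids, had 12.04, 16.13 and 25.41 normalized counts in control and 9.60, 15.6 and 34.7 in AKO samples. Both the lowest and the highest sample were AKO samples (log2 fold change 0.03, standard error 0.49, 95% interval -1.11 to 1.17, adjusted p = 0.994 from limma). For Ptgds the SD between samples (6.85 in control and 13.1 in AKO) was above the Poisson counting error of 4.29 and 4.39, and the same held for Fgf21 (6.53 and 9.13 against 3.11 and 3.60).

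**Figure D3:**
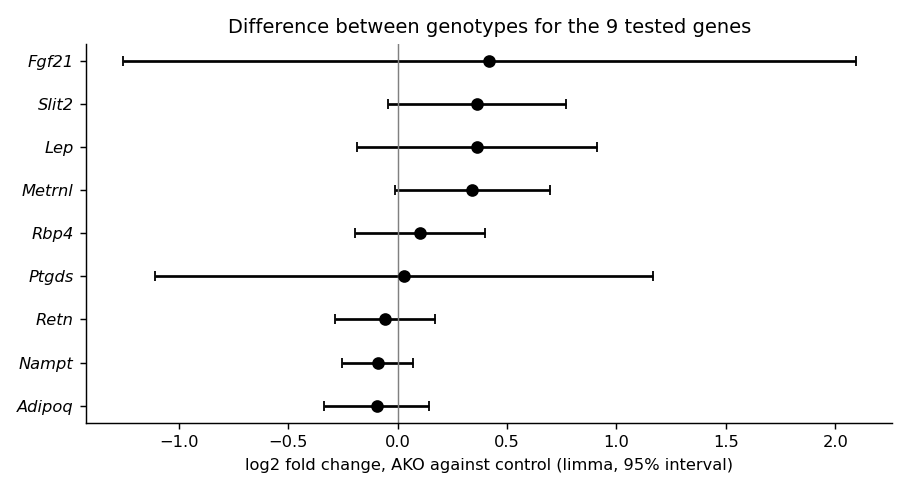
Log2 fold change of AKO against control from limma for the 9 tested genes, with 95% intervals (bars). Every interval includes 0. The intervals of Nampt, Retn and Adipoq are the narrowest, and those of Ptgds and Fgf21 reach beyond 1 on either side.

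The Cre of AKO mice is directed by Adipoq sequences, and the genes around Adipoq were therefore read as well. Of the 10 listed genes within 250 kb, Adipoq included, 5 were tested. Kng2, which encodes a precursor of kinin peptides, lies 117 kb before Adipoq. It had 104, 93.6 and 77.3 normalized counts in control and 32.6, 13.7 and 40.5 in AKO samples, without overlap. The difference of -1.75 on the log2 scale (standard error 0.37) had an adjusted p of 0.289 with limma, and DESeq2 on recovered reads gave 0.00162. Eif4a2, a translation initiation factor 32.4 kb before Adipoq, had 2895, 2647 and 2401 normalized counts in control and 3460, 3926 and 3779 in AKO samples, again without overlap. The log2 difference of 0.49 (standard error 0.08) had an adjusted p of 0.205 with limma, and DESeq2 gave 0.00011. Kng2 and Eif4a2 thus passed only with DESeq2 among the settings run, and in opposite directions.

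Between Eif4a2 and Adipoq lies Rfc4, a subunit of replication factor C, on the opposite strand to both, and its annotated end overlaps that of Eif4a2. Rfc4 had 31.1, 46.2 and 37.6 normalized counts in control and 50.9, 68.3 and 55.0 in AKO samples, without overlap (log2 fold change 0.59, standard error 0.21, adjusted p = 0.498 from limma). Reads in the overlap of Rfc4 and Eif4a2 cannot be told apart if counting ignored strand, which the sources used here do not state. St6gal1, a sialyltransferase 66.7 kb after Adipoq, had 436 to 502 normalized counts in control and 488 to 592 in AKO (log2 fold change 0.23, standard error 0.10, adjusted p = 0.539 from limma). The other listed neighbors, Ahsg, Fetub, Kng1, Snord2 and Snora81, were too low to test, and Ahsg had 7.03, 4.30 and 3.05 normalized counts in control and 0, 0 and 0.964 in AKO. All 4 tested genes within 250 kb other than Adipoq had an unadjusted limma p under 0.05, as did 2 of 8 tested genes from 250 to 1000 kb, against 9.10% of all genes. Whether copies or reads from the transgene contribute to these values was not tested.

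**Figure D4:**
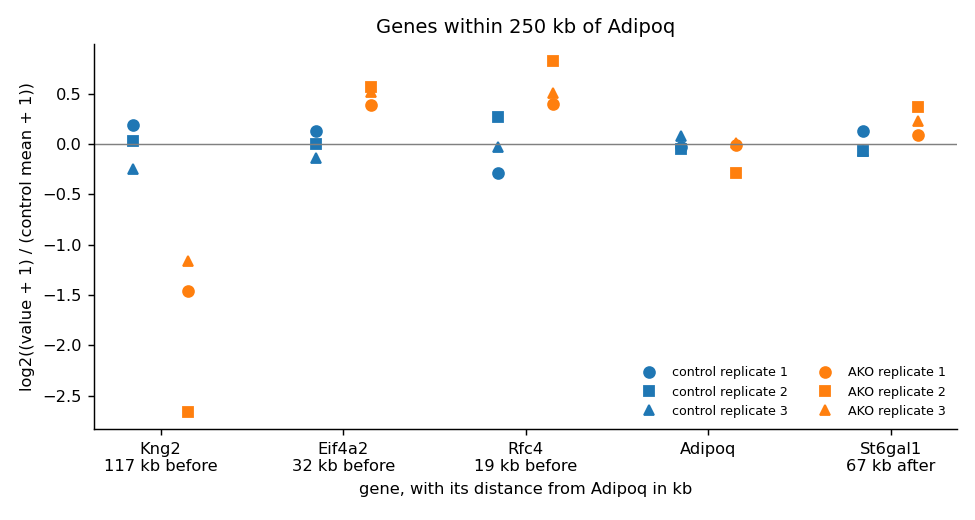
Log2 of each value (plus 1) over the control mean (plus 1) for the tested genes within 250 kb of Adipoq, ordered by position, with each point 1 sample. Kng2 values are lower and Eif4a2 and Rfc4 values higher in all 3 AKO samples, whereas Adipoq and St6gal1 overlap between groups.

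Other secreted factors of white fat were examined as a list of 33 genes, of which 26 were tested. None passed with limma, and 5 had an unadjusted p under 0.05, all with higher values in AKO and no overlap, where 4.41% of all genes had such a p in this direction. The median log2 fold change was 0.19 over the list and 0.01 over all genes. Fitted values were higher in AKO for 19 of the 26 genes and lower for 7. Which cells of the tissue held these mRNAs was not tested. Dpp4, a peptidase shed by fat that also marks stromal progenitors, had 583, 832 and 727 normalized counts in control and 1090, 944 and 1117 in AKO samples (log2 fold change 0.57, standard error 0.13). Its adjusted p was 0.315 with limma, against 0.00844 with DESeq2. The others included Wisp2, a secreted CCN family protein (log2 fold change 0.58), Fstl1 (0.37) and Sema3c (0.29). The 6 stromal progenitor markers, Dpp4 included, summed to 34250 to 50121 normalized counts in control and 41529 to 56160 in AKO, and their part in these values was not tested. The 3 most abundant genes of the list, Cfd (adipsin, log2 fold change -0.12), Sparc (-0.07) and Grn (0.01), overlapped between groups.

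Factors secreted by thermogenic fat were examined as a list of 24 genes, of which 23 were tested. None passed with limma. Unadjusted p-values were under 0.05 for 4 genes with lower and 2 with higher values in AKO, where 4.69% of all genes had such a p with lower values. S100b, a neurotrophic protein released by brown and beige adipocytes, had 217, 256 and 204 normalized counts in control and 138, 99.6 and 125 in AKO samples (log2 fold change -0.90, standard error 0.15). It was called with DESeq2 (adjusted p = 0.00162) and not with limma (adjusted p = 0.205). Fndc5 (log2 fold change -0.60), Pm20d1 (-0.34) and Vegfa (-0.19) also did not overlap between groups, with AKO lower, as for 8.31% of all genes. Mstn (myostatin), a muscle hormone, had 0, 6.45 and 6.10 normalized counts in control and 14.4, 63.5 and 65.6 in AKO samples. It was called with DESeq2 (adjusted p = 0.000639) and not with limma (adjusted p = 0.364). The skeletal muscle markers summed to 167, 26327 and 14225 normalized counts in control replicates 1, 2 and 3 and to 19297, 74015 and 113206 in the corresponding AKO replicates, and their part in the Mstn values was not tested. Igf1 (-0.09) and Enpp2 (-0.12), among the 3 most abundant of the list with Vegfa, overlapped between groups.

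Receptors of the 10 factors showed no call with limma or DESeq2. Of 19 receptor genes, 12 were tested, none had an unadjusted p under 0.05, and the median log2 fold change was 0.02. The adiponectin receptors Adipor2 (21602 to 23083 normalized counts in control and 20469 to 21729 in AKO) and Adipor1 (3780 to 4192 and 3676 to 3998) overlapped between groups, as did Fgfr1 (4150 to 4477 and 4002 to 5111), which receives FGF21 together with Klb. Of the paralogs of the 10 genes, 6 of 12 were tested and none passed with limma. Rbp7, a retinol-binding protein, had 361 to 545 normalized counts in control and 341 to 517 in AKO.

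Of 10 genes for the transcription and secretion of adiponectin, all were tested and none passed with limma, and the median log2 fold change was -0.08. Cebpb, a transcription factor that responds to cAMP, had 1741, 2239 and 1778 normalized counts in control and 1077, 1193 and 1656 in AKO samples, without overlap. The log2 difference of -0.57 (standard error 0.17) gave an adjusted p of 0.414 by limma, against 0.0354 by DESeq2. Cebpa (log2 fold change -0.10), Srebf1 (0.05) and Pparg (-0.06), the main adipocyte regulators of the list and its most abundant genes, did not pass with either. Cebpa was lower and Srebf1 higher in all 3 AKO samples than in the controls, by less than 1 standard error for Srebf1 (0.06) and little more for Cebpa (0.08).

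Of the enzymes and regulators linked to the other factors, 13 genes of NAD metabolism, 11 of prostaglandin D2 metabolism, 14 of retinoid metabolism and 9 inducers of Fgf21 and Gdf15 were tested, and none passed with limma. An unadjusted p under 0.05 with AKO higher was found for 1 NAD, 2 prostaglandin, 1 retinoid and 0 inducer genes (4.41% of all genes). With AKO lower it was found for 1, 0, 2 and 3 genes in the same order (4.69% of all genes). Retsat, a retinol saturase of adipocytes, had 3659, 3654 and 3255 normalized counts in control and 2868, 2815 and 3062 in AKO samples (log2 fold change -0.27, standard error 0.07, adjusted p = 0.356 from limma). Dhrs9, a retinol dehydrogenase, had 92.3, 86.0 and 47.8 in control and 35.5, 20.5 and 39.5 in AKO samples (log2 fold change -1.21, standard error 0.33, adjusted p = 0.374 from limma). Neither overlapped between groups, and the same held, with AKO lower, for the mitochondrial deacylase Sirt3 (log2 fold change -0.39) and the stress factors Ddit3 (-0.25) and Xbp1 (-0.18). Nt5e, an ectonucleotidase, was higher in AKO without overlap (0.43). The lack of overlap was part of the rule by which these genes, from Retsat to Nt5e, were named. The other most abundant genes had log2 fold changes of -0.22 (Nnmt), -0.09 (Nadk) and -0.13 (Nadk2) for NAD, -0.12 (Ptgr2), -0.17 (Cbr1) and 0.20 (Ptges) for prostaglandins, -0.09 (Adh1) and 0.01 (Rxra) for retinoids, and -0.06 (Atf4) and -0.12 (Asns) for the inducers. Of these 10, the groups did not overlap for Nadk, Nadk2 and Cbr1, all lower in AKO, where 8.31% of all genes were lower without overlap. Ppara, a nuclear receptor that induces Fgf21, was the only inducer called with DESeq2 (adjusted p = 0.0474) and had an adjusted p of 0.484 from limma. It is named after its values were seen, with 1801, 2029 and 1228 normalized counts in control and 1297, 1064 and 1083 in AKO samples.

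**Figure D5:**
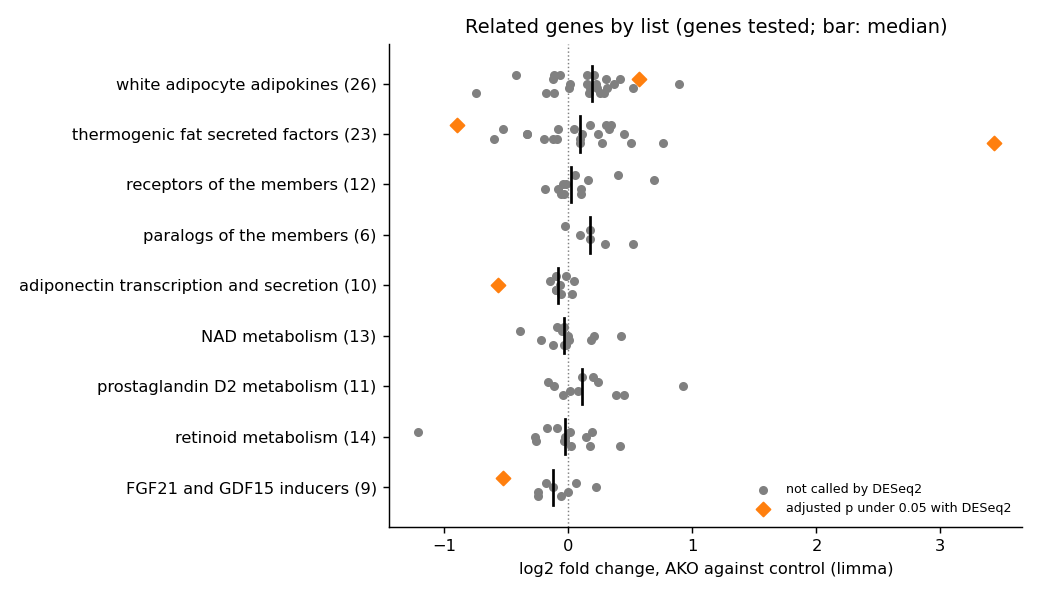
Log2 fold change of AKO against control (limma) for each tested gene of the 9 lists, with the number tested in brackets and the median as a bar. Orange diamonds are the 5 genes with an adjusted p under 0.05 with DESeq2 (Dpp4, Mstn, S100b, Cebpb and Ppara), and no gene passed with limma.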

How the data were processed

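The authors prepared RNA-Seq libraries from iWAT of mice kept in the cold. Groups follow the genotype that each sample title gives. The authors used STAR for alignment to GRCm38.p6, counted reads with featureCounts on GENCODE M25 and deposited a normalized signal for each gene and sample, in which counts are divided by the size factor of the sample from DESeq2. The filter behind the listed genes and the strand setting were not given in the sources used here. The columns that hold the authors' fold changes and p-values were not used. Divided by the value of 1 read, 100% of values gave whole reads (tolerance 0.01 reads).

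limma (version 3.58.1, R 4.3.3) with a variance trend was fitted to log2(value + 1) over genes with a mean of at least 10, with Benjamini-Hochberg adjustment over all of them and a threshold of 0.05. DESeq2 (version 1.42.0), edgeR (version 4.0.16, quasi-likelihood) and limma-voom were run on recovered reads. Other alternatives were pseudocounts of 0.1 and 10, no filter, at least 10 in every sample, TMM factors, a block for the replicate number, and fits without each sample in turn. The fits were tested on simulated data. Nothing in the labels says whether the pools are separate cohorts, and p-values measure the spread between these pools. Pairs of samples within a group were not duplicates (chi-square of their reads over its degrees of freedom, 9.86 to 20.1).

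The 10 genes and the lists were chosen with earlier results of these data known. Named genes were the 10, the 3 most abundant of each list, those of a list with an unadjusted p under 0.05 and no overlap, the listed genes within 250 kb of Adipoq, the 3 genes of most similar pattern to Adipoq and to Metrnl (the lowest p), Nrg4 and Ucp1. Lepr and Ppara were named after their values were seen. A gene that this rule names is not reported here. Positions and lengths come from GENCODE M21 (also GRCm38), in which 15894 symbols (96.1%) were found. None of the 10 genes shares exonic bases with another annotated gene or has a near-identical copy (95% identity over 100 bases).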

Additional observations from a re-analysis of the deposited data

How the results depend on the processing

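None of the 10 genes was called under any of the 9 other settings or the 6 fits that left out a sample, and the 9 tested genes had the same direction in each of the 9 settings that tested them. Over all genes, limma called 2, and the number was 149 with DESeq2 (36 higher, 113 lower), 6 with at least 10 in every sample and 1 with limma-voom. Ucp1 passed with DESeq2 and with at least 10 in every sample. The number of genes that limma called lay between 0 and 3 when a sample was left out (0 without control replicate 1, control replicate 3 or any AKO replicate, and 3 without control replicate 2). List genes called numbered 5 with DESeq2 and 0 under the other settings. The cause was not tested.

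With the replicate number as a block, limma called 2 genes, none of them among the 10 or in the lists. Same-numbered samples share only a number: the correlations of their deviations from the group means were 0.135, -0.351 and 0.240, and not every sample correlated best with its own number.

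When a sample was left out, the direction reversed for 5 of the 9 genes, with log2 fold changes from -0.15 to 0.0011 for Adipoq, -0.12 to 0.030 for Retn, -0.061 to 0.20 for Rbp4, -0.13 to 1.07 for Fgf21 and -0.44 to 0.43 for Ptgds. The same held for Cfd (-0.20 to 0.027), Sparc (-0.15 to 0.0083), Grn (-0.056 to 0.13), Igf1 (-0.23 to 0.050), Enpp2 (-0.21 to 0.0065), Adipor1 (-0.067 to 0.0075), Rbp7 (-0.19 to 0.16), Pparg (-0.13 to 0.0075) and Rxra (-0.023 to 0.079). The 6 samples together held 70 reads of Fgf21, 29 of Gdf15, 114 of Ptgds and 250 of Slit2.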
